A study of Xenopus laevis with 4 samples.

Results

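Kinesins are motor proteins that use ATP to move along microtubules or to take them apart, and different families serve cilia, the mitotic spindle and the transport of organelles. In a forming cilium, the heterotrimeric kinesin-2 motor (the motor subunits Kif3a and Kif3b or Kif3c with the accessory protein Kifap3) carries the intraflagellar transport trains outward to the tip. In a dividing cell, other kinesins slide spindle microtubules apart, move chromosomes, shorten microtubule ends and build the midzone where the cell is cut. Multiciliated cells have left the cell cycle while they build many basal bodies and cilia, so the ciliary and the mitotic motors of one tissue can be read side by side.

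The kinesin genes were taken as all probe sets whose gene symbol, without the homeolog letter, began with kif and a number, kifc, kifap, or klc and a number. This gave 33 probe sets for 27 genes, of 11303 genes with a symbol on the array. Xenopus laevis is allotetraploid: the letters .L and .S mark the copies (homeologs) of a gene on the long and the short subgenome, which are counted here as separate genes. By known roles, 4 of the 27 genes were ciliary, 17 mitotic, 2 light chains of the cargo motor kinesin-1, and 4 of transport or other roles. Each gene was read by its brightest probe set, and 25 of the 27 passed a filter that removed the dimmest 25% of probe sets. Of the ciliary kinesins listed by role, kif3a, kif3b, kifap3 and kif19 were on the array under these symbols, and kif3c, kif6, kif7, kif9, kif17, kif24 and kif27 were not analysed here.

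The samples were explants of presumptive ectoderm (animal caps) from Xenopus laevis embryos injected at the 2-cell stage, on 4 one-colour Affymetrix arrays. The 2 arrays of the group called ICD+MCI-HGR came from embryos given synthetic mRNA for both ICD and MCI-HGR, and the 2 of the group called ICD from embryos given ICD mRNA alone. ICD usually stands for the intracellular part of the Notch receptor, an active form that blocks the multiciliated fate in ectoderm, and both groups carried it; MCI-HGR is a hormone-inducible form of multicilin, the regulator that starts multiciliated cell formation. All explants were cut at stage 9 to 10, received dexamethasone, the hormone that activates MCI-HGR, at stage 11.5, and were collected 5 h later near stage 14. How many embryos went into an array, and whether clutches differed between replicates, is not in the labels. The p-values therefore cover the spread among these arrays alone, which may be technical, and that spread is mostly pooled over genes.

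Multicilin (mcidas.S) read 384.2 and 141.5 on the ICD+MCI-HGR arrays (signal intensity, replicates 1 and 2 in this order throughout), against 9.7 and 17.1 on the ICD arrays, and the ciliary regulator foxj1.S read 3818.8 and 2668.4, against 283 and 268.7. The first ICD value of mcidas.S lay below 13, the highest of 17 tag control probe sets on that array, which mark background. Whether the mcidas.S probe set reads the injected multicilin mRNA or the explants' own gene was not tested. Rose and fell are used of genes that passed limma with the replicate number as a block at a Benjamini-Hochberg adjusted p of 0.05 over all 9380 genes tested; by this test 6.72% of all genes rose and 3.32% fell. Epidermal markers were present on all 4 arrays, with tfap2a.L at 2876.7 and 3146 with MCI-HGR and 2689.4 and 3161.4 without. Of 12 epidermal marker genes 3 rose (grhl3.S, grhl3.L and krt12.4.S) and 3 fell (tp63.S, tp63.L and krt18.1.L). With MCI-HGR grhl3.S read 1676.4 and 1413.2, against 506.5 and 788.8 without, and tp63.S read 119.1 and 302.6, against 329.1 and 745.8. All 8 multiciliated cell marker genes rose. Of them tekt2.L read 47.2 and 52.3 with MCI-HGR, against 10.1 and 7.7 without. Both its ICD values lay under the highest tag control of their array, so it passed the filter through its MCI-HGR values. Among 6 neural markers sox2.L and ncam1.L rose, and among 8 mesoderm ones gsc.S rose and tbx6.L fell. Among 3 of secretory cells foxa1.S rose, while its other copy foxa1.L, at a log2 difference of -0.73, did not pass. Of 5 cement gland ones 3 fell, and 0 of 4 ionocyte and 0 of 4 endoderm ones passed. Without the block 0 of these marker genes passed. The summed signal of the mesoderm markers was 1108.2 and 217.6 with MCI-HGR and 1844.4 and 206.5 without, so it ran mostly with the replicate number. In replicate 1 it was also lower with MCI-HGR. Most of the replicate 1 sum came from tbxt.S, at 474.1 with MCI-HGR and 930.4 without, and tbxt.L, at 273.1 and 668.9. Signal from the middle of the actin control transcript, divided by that from its 3′ end, was 0.569 and 0.401 with MCI-HGR and 0.64 and 0.652 without. For the Dap control, signal at the 5′ end divided by that at the 3′ end was 0.0415 and 0.028 with MCI-HGR and 0.062 and 0.0646 without. These ratios of RNA ends and the marker changes ran with the group beside every gene below, and their part in the kinesin results was not tested.

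The comparison asked which motors change when MCI-HGR is made active in explants that all carry ICD, and it was made within each replicate number. With MCI-HGR, 3 of the 25 kinesin genes rose and 0 fell. They were kif3b.S, of the ciliary kinesin-2 motor, and both copies of kif2a, a microtubule depolymerizer. Over all genes, 6.72% rose and 3.32% fell by the same test. At an unadjusted p of 0.05 with the block, 4 of the 25 were higher and 1 lower, beside 10.8% and 8.20% of all genes. The 4 were the 3 that rose and kifap3.L, and the 1 was kifc3.S. The call depends on the form of the fit: without the block limma called 0 of 9380 genes (0.00%). With the block but no intensity trend in the variance it called 0 kinesin genes, while 38 of 9380 genes rose and 0 fell. At an unadjusted p of 0.05 without the block, kif3b.S and kif2a.S were higher and 0 kinesin genes were lower, beside 3.66% and 0.448% of all genes. In explants of mixed cells, a change in the number of cells of a type and a change in RNA per cell cannot be told apart.

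**Figure D1:**
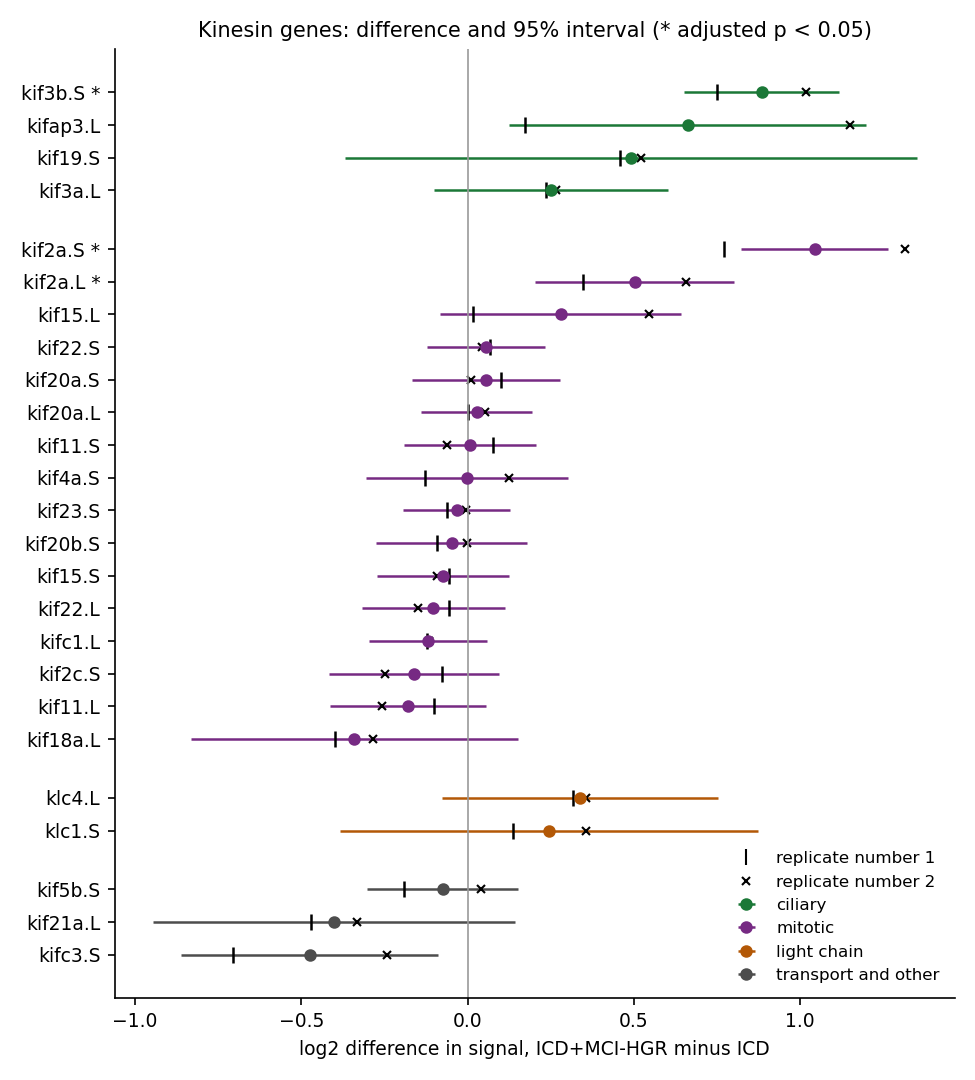
Log2 difference in signal (ICD+MCI-HGR minus ICD) of the 25 kinesin genes by role, with its 95% interval from limma with the replicate block; the vertical tick is the difference in replicate number 1 and the cross that in number 2. All 4 ciliary genes lie right of 0, with intervals that include 0 for kif19.S and kif3a.L; of the mitotic genes, all but kif2a.S and kif2a.L have intervals that include 0.

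By their brightest probe sets, all 4 ciliary genes were higher with MCI-HGR in both replicate numbers, and kif3b.S rose. Over all genes 32.7% were higher in both. The count includes kif19.S, whose ICD value of replicate 1 lay under the highest tag control of its array. Kif3b is a motor subunit of kinesin-2, and its gene (kif3b.S, probe set Xl2.1113.1.S1_at) read 550 and 522 with MCI-HGR, against 326.8 and 257.7 without. Both arrays with MCI-HGR stood above both without. The log2 difference was 0.88 ± 0.11 (SE of the blocked fit, n = 2 per group, 95% interval 0.65 to 1.12), or 1.85-fold, with 1.68-fold in replicate 1 and 2.03-fold in replicate 2 (limma, adjusted p = 8.83e-07 with the block, 0.513 without it and 0.118 with the block but no trend). By size of the difference kif3b.S ranked 343 of 9380 genes. Each SE, interval and p-value of the blocked fit rests mostly on a variance pooled over genes of like signal. That prior had 26.2 degrees of freedom, beside 1 residual. The ± of a gene is therefore not the spread of its own 2 replicate differences.

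Of the other subunits of this motor, 2 were measured and 0 passed, beside 10.0% of all genes in either direction. The accessory subunit gene kifap3.L read 48.5 and 64.8 with MCI-HGR, against 43 and 29.2 without. Its groups did not overlap, but the fold was 1.13 in replicate 1 and 2.22 in replicate 2, and its log2 difference of 0.66 ± 0.26 (SE, n = 2 per group) did not pass (limma, adjusted p = 0.131). The partner motor subunit gene kif3a.L read 144.4 and 96.1 with MCI-HGR, against 122.7 and 79.9 without. Its groups overlapped because both replicate 1 arrays were brighter than both replicate 2 arrays. Its log2 difference of 0.25 ± 0.17 (SE, n = 2 per group) did not pass (limma, adjusted p = 0.494), and its 95% interval ran from -0.10 to 0.60. Whether kif3b.S and kif3a.L differed in response was not tested.

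Kif19, a kinesin-8 motor that limits the length of motile cilia in the mouse, was dim. Its gene kif19.S read 15.4 and 15.5 with MCI-HGR, against 11.2 and 10.8 without. The ICD value of replicate 1 lay under the highest tag control of its array, at 13, so only 1 ICD array measured it. Its log2 difference of 0.49 ± 0.42 (SE, n = 2 per group) did not pass (limma, adjusted p = 0.614 with the block and 0.206 with the block but no trend). The arrays of each group lay close together, but the SE follows mostly the variance that the intensity trend gives to dim genes. The median log2 difference of the 4 ciliary genes was 0.58, with 0.35 in replicate 1 and 0.77 in replicate 2, beside 0.0065 over all genes tested. The value of 0.58 lies midway between kif19.S at 0.49 and kifap3.L at 0.66, neither of which passed. The ciliary median was 0.352 with 16 added to each signal before the log.

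**Figure D2:**
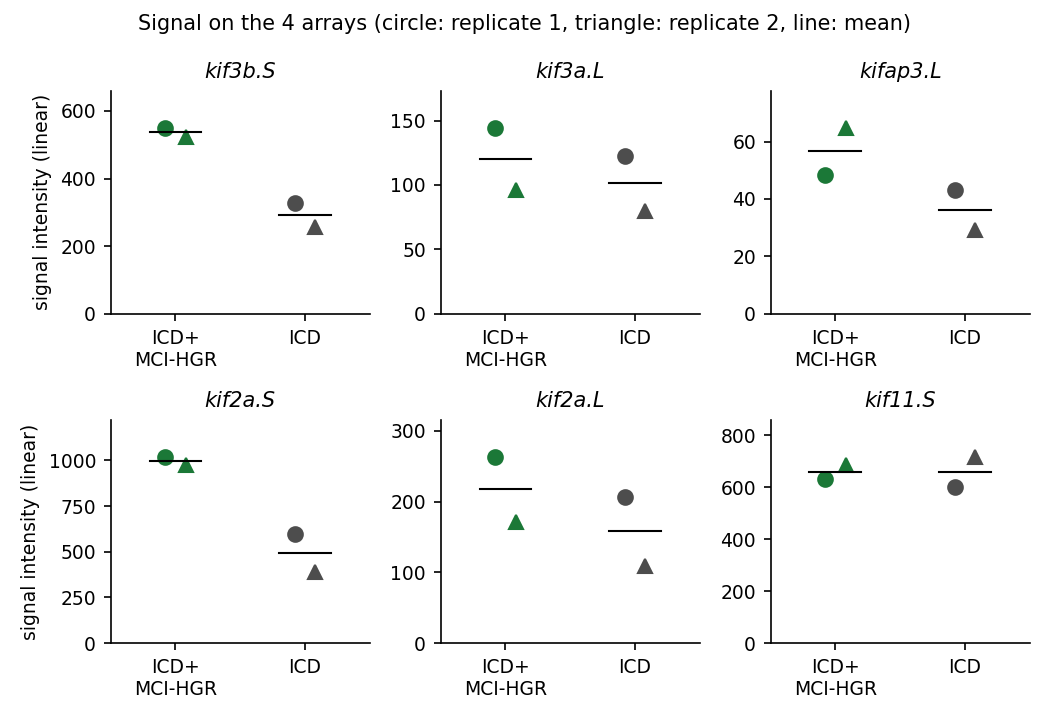
Signal intensity (linear axis from 0) of 6 kinesin genes on each array, with the 2 ICD+MCI-HGR arrays left of the 2 ICD arrays; circles are replicate 1, triangles replicate 2 and lines the group means. For kif3b.S, kifap3.L and kif2a.S both arrays with MCI-HGR lie above both without, while kif3a.L and kif2a.L overlap and kif11.S has means of 660 and 658.

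Of the 16 mitotic genes that passed the filter, 2 rose and 0 fell, beside 6.72% and 3.32% of all genes. Both that rose were copies of kif2a. Kif2a belongs to kinesin-13, whose members do not walk but take tubulin off microtubule ends; it acts at spindle poles and in neurons, and in human cells at the base of the primary cilium, where it aids its disassembly. kif2a.S (probe set Xl2.24051.1.S1_at) read 1018.1 and 972.3 with MCI-HGR, against 595.9 and 390.7 without. Its groups did not overlap, and its log2 difference of 1.04 ± 0.11 was the largest of the 25 kinesin genes (SE, n = 2 per group, 95% interval 0.82 to 1.27). This was 2.06-fold, with 1.71-fold in replicate 1 and 2.49-fold in replicate 2 (limma, adjusted p = 1.64e-08 with the block, 0.525 without it and 0.152 with the block but no trend).

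The other copy, kif2a.L (probe set Xl2.603.1.S1_a_at), read 262.9 and 171.7 with MCI-HGR, against 206.7 and 108.8 without. Each array with MCI-HGR was brighter than the ICD array of its own number, but the groups overlapped, since replicate 2 was dimmer in both. Its log2 difference of 0.50 ± 0.15 was 1.42-fold (SE, n = 2 per group; limma, adjusted p = 0.0223 with the block, 0.9998 without it, 0.265 with the block but no trend and 0.0646 with the block after quantile normalization). Near-identical homeologs can share probes, so the kif2a copies may not be read apart. Without the block, the kif2a.L difference was 0.0397 when ICD replicate 2 was left out, 0.195 without ICD+MCI-HGR replicate 1, 0.81 without ICD+MCI-HGR replicate 2 and 0.966 without ICD replicate 1. The related kinesin-13 gene kif2c.S, whose product (MCAK) corrects faulty attachments of chromosomes, read 230.8 and 305.6 with MCI-HGR, against 243.2 and 362.9 without, and did not pass at a log2 difference of -0.16 ± 0.12 (SE, n = 2 per group; limma, adjusted p = 0.559).

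The other 14 mitotic genes are those left after the 2 that passed, so that 0 of them passed follows from the choice. At an unadjusted p of 0.05 with the block, 2 of all 16 (the kif2a copies) were higher and 0 lower, beside 10.8% and 8.20% of all genes. Without the block 1 of the 16 (kif2a.S) was higher and 0 lower, beside 3.66% and 0.448%. For 12 of the 16 the 95% interval of the blocked fit lay within a 1.5-fold change either way, beside 59.5% of all genes. The width of an interval follows mostly the signal of the gene and is narrower for bright genes. These shares were not matched for signal. Without the block the intervals were wider, and 4 of the 16 lay within 1.5-fold, beside 12.3% of all genes. The median log2 difference of the 16 was -0.017, with -0.057 in replicate 1 and -0.0037 in replicate 2. In both replicate numbers 6 were higher and 8 lower, beside 32.7% and 29.0% of all genes, and 2 split.

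Kif11 (Eg5) is the kinesin-5 that pushes spindle poles apart. kif11.S read 633.4 and 686.4 with MCI-HGR, against 600.5 and 716.4 without, and the 2 groups overlapped. Its log2 difference was 0.0076 ± 0.097, with a 95% interval of -0.19 to 0.21 (SE, n = 2 per group). The .L copy, kif11.L, read 341.6 and 342.3, against 366.5 and 409.5, so both arrays with MCI-HGR lay below both without, and its difference of -0.18 ± 0.11 did not pass (SE, n = 2 per group; limma, adjusted p = 0.451). Kif15, which works beside Kif11 on the spindle, had log2 differences of 0.28 ± 0.18 for kif15.L and -0.074 ± 0.097 for kif15.S.

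The motors of the midzone and of cytokinesis had log2 differences within the 25th to 75th percentiles of all genes, which ran from -0.14 to 0.14. Those of kif11.S, kif15.S, kif22.L, kif22.S and kifc1.L, with other spindle roles, lay there too. By definition that range holds the middle of all genes. kif23.S, for the MKLP1 subunit of centralspindlin, read 1748.7 and 1370.6 with MCI-HGR, against 1823.5 and 1375.4 without. Its log2 difference was -0.033 ± 0.078 (SE, n = 2 per group), and within a replicate number its arrays lay close. kif20a.L and kif20a.S, for MKLP2, which brings the chromosomal passenger complex to the midzone, had log2 differences of 0.027 ± 0.082 and 0.056 ± 0.11. The related kif20b.S, needed for the end of cytokinesis, had one of -0.048 ± 0.11, and kif4a.S, a chromokinesin that also sets midzone length, one of -0.0012 ± 0.15. The kif4a.S value is the mean of -0.13 in replicate 1 and 0.13 in replicate 2.

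Of the motors that act on chromosomes and spindle poles, kif22.L and kif22.S, for the chromokinesin Kid, differed by -0.10 ± 0.10 and 0.056 ± 0.087 on the log2 scale (SE). The kif22.L probe set is of the kind marked _s_at, whose probes can read more than 1 transcript. kifc1.L, for the minus-end directed kinesin-14 that focuses spindle poles, read 943.6 and 1013.2 with MCI-HGR, against 1027.4 and 1098.4 without. Its groups did not overlap, but the difference of -0.12 ± 0.086 did not pass (limma, adjusted p = 0.521). kif18a.L, for the kinesin-8 that damps chromosome movement, had the lowest value of the mitotic genes, -0.34 ± 0.24, which did not pass either (limma, adjusted p = 0.51).

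Kinesin-1 carries vesicles and mitochondria through a heavy chain such as Kif5b and light chains that bind cargo. Of its 3 measured genes 0 passed, beside 10.0% of all genes in either direction. kif5b.S read 421.7 and 416.9 with MCI-HGR, against 481 and 405.4 without, a log2 difference of -0.075 ± 0.11 (SE, n = 2 per group). The light chain genes klc4.L and klc1.S had differences of 0.34 ± 0.20 and 0.25 ± 0.31 by their brightest probe sets. These probe sets were higher in both replicate numbers, as were 32.7% of all genes. Of the remaining transport genes, kifc3.S, for a minus-end directed motor linked to cell junctions, read 69.5 and 85.8, against 113.4 and 101.6. Both arrays with MCI-HGR lay below both without, and the difference of -0.48 ± 0.19, the lowest of the 25, did not pass (limma, adjusted p = 0.132). kif21a.L, for a motor that restrains microtubule growth, had one of -0.40 ± 0.27.

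Over the 25 genes, both arrays with MCI-HGR stood above both without for 4 and below for 3, and 18 overlapped; over all genes the shares were 12.6% above and 9.52% below. Much of the spread followed the replicate number. The absolute difference between replicate numbers exceeded that between groups in 18 of 25 kinesin genes, and in 73.2% of all genes. kif15.L was the extreme: it read 242.4 and 61.4 with MCI-HGR, against 239.9 and 42.1 without, so in the mean of both groups replicate 2 minus replicate 1 was -2.25 on the log2 scale. Its other copy, kif15.S, had a replicate difference of -0.53. Among the others, klc1.S and kif20b.S had replicate differences of -0.90 and -0.89, and kif2c.S and kif18a.L ran the other way at 0.49 and 0.41. The labels do not say what separates the numbers.

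**Figure D3:**
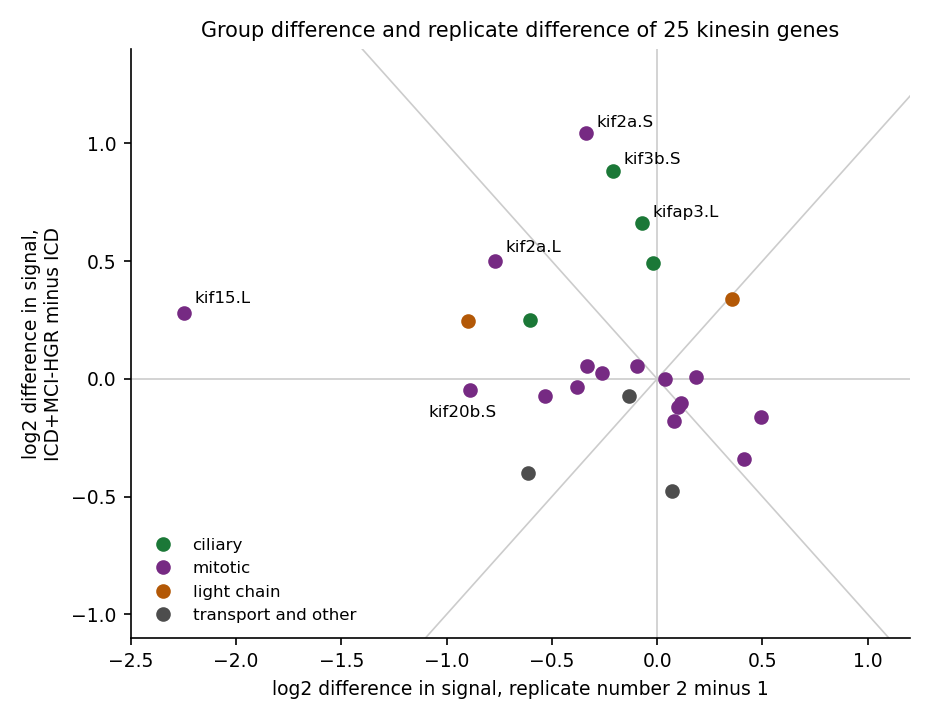
Each point is 1 of the 25 kinesin genes, with its log2 difference between replicate numbers (2 minus 1) on the x axis and between groups (ICD+MCI-HGR minus ICD) on the y axis; the diagonals mark equal size. The 18 genes whose replicate difference was the larger lie left and right of the diagonals. Above them lie kif2a.S, kif3b.S, kifap3.L and kif19.S, and below them kif11.L, kifc1.L and kifc3.S.

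Both homeologs were measured for kif2a, kif11, kif15, kif20a and kif22. Only for kif2a did both copies pass, and for kif11, kif15 and kif22 the copies had differences of opposite sign, each with an interval that included 0; kif11.S turned negative after quantile normalization, at -0.0376. Of 5 genes with more than 1 probe set, the dimmer kif20a.L and kif23.S probe sets had log2 differences of 0.050 and 0.12, beside 0.027 and -0.033 for the brighter. For kifap3.L the dimmer probe set read 13.8 and 6.9 with MCI-HGR, against 12.6 and 7.5 without, a difference of 0.0055. That probe set fell under the filter on dim signals, and 3 of its 4 values lay under the highest tag control of their array. The dimmer klc4.L probe sets had -0.051 and 0.077 and that of klc1.S had 0.055, beside 0.34 and 0.25 for the brighter. The 2 genes removed by the filter, kif13b.L and kif18b.L, lay under the highest tag control on all 4 arrays, at 6 and 8 with MCI-HGR and 7.3 and 0.4 without for kif13b.L, and at 0.4 and 3.2 with MCI-HGR and 10.7 and 9.7 without for kif18b.L. They were not well above background, and no fold is given.

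Most measured genes of the trains that kinesin-2 carries rose. Of 39 listed names of intraflagellar transport and its return motor, 13 were among the genes tested, as 14 genes. Of these 14, 12 rose and 0 fell, beside 6.72% and 3.32% of all genes. Their median log2 difference was 1.06 (0.88 in replicate 1 and 1.22 in replicate 2), beside 0.0065 over all genes. Without the block 0 of the 14 passed, and 12 were higher at an unadjusted p of 0.05, beside 3.66% of all genes. hspb11.L (ift25), of the train complex IFT-B, read 546.6 and 794.4 with MCI-HGR, against 136.4 and 159.2 without, 4.47-fold higher with no overlap (limma, adjusted p = 5.39e-14 with the block, 0.143 without). ift80.L, also of IFT-B, read 456.4 and 859.1, against 168 and 227, 3.21-fold higher (limma, adjusted p = 1.44e-11 with the block, 0.426 without). Its probe set is marked _s_at, so its probes can read more than 1 transcript. ift43.L, of the IFT-A complex that serves the return trip, read 276.1 and 373, against 111.9 and 134.1, 2.62-fold higher (limma, adjusted p = 8.66e-09 with the block, 0.324 without). The 2 that did not pass were ift74.L, at a log2 difference of 0.58 ± 0.27, and cluap1.L, at -0.12 ± 0.13. Whether the train and motor genes differed was not tested.

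The partners of the mitotic motors were measured in 40 genes, under 27 of 36 listed names. Of the 40, 0 rose and 0 fell, beside 6.72% and 3.32% of all genes. At an unadjusted p of 0.05 with the block, aurka.L, for the spindle pole kinase Aurora A, was higher at a log2 difference of 0.19 ± 0.084 (limma, adjusted p = 0.212), and 0 were lower, beside 10.8% and 8.20% of all genes. Without the block 0 of 40 reached that level, beside 3.66% higher and 0.448% lower over all genes. Their median log2 difference was -0.014, and the values ran from -0.63 for zwilch.S, of a kinetochore complex, to 0.44 for racgap1.S, which joins Kif23 in centralspindlin. The product of tpx2.S, which read 2385.2 and 2159.2 with MCI-HGR and 2121.5 and 2224.7 without, binds Kif11 and Kif15 on the spindle, and its difference was 0.063 ± 0.075 (SE, n = 2 per group). Of 3 measured genes for cargo adaptors of kinesin-1 (fez2.L, rhot1.L and clstn3.S), 0 passed, and fez2.L was lower at an unadjusted p of 0.05, at -0.51 ± 0.20.

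**Figure D4:**
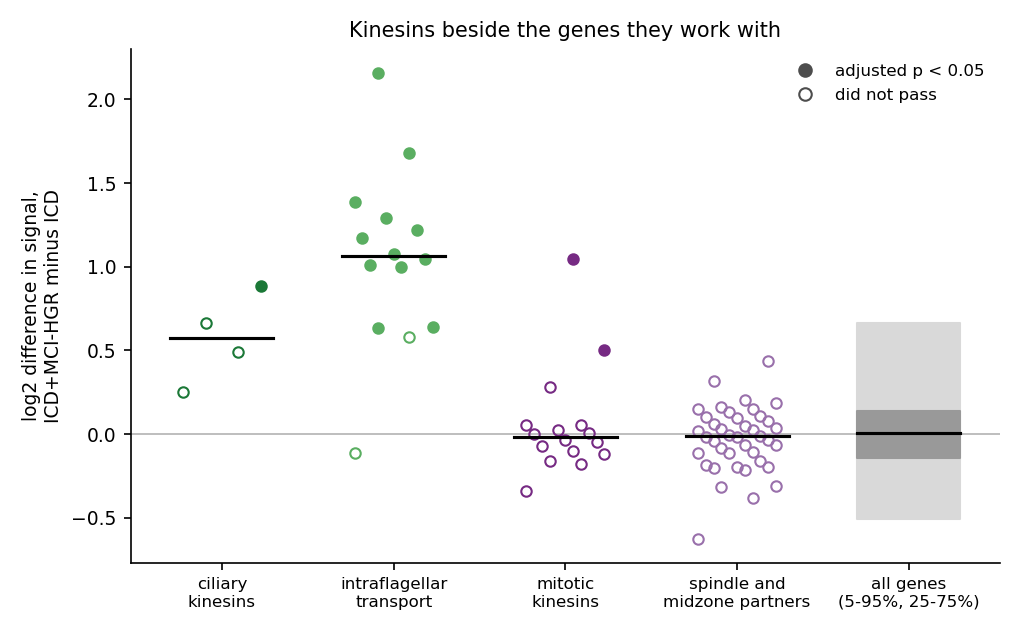
Log2 difference in signal (ICD+MCI-HGR minus ICD) of 4 ciliary kinesin genes, 14 genes of intraflagellar transport, 16 mitotic kinesin genes and 40 spindle and midzone partners, filled where the blocked limma fit passed; black lines are medians, and the grey bars give the 5th to 95th and 25th to 75th percentiles of all 9380 genes. The medians are 0.58, 1.06, -0.017 and -0.014, beside 0.0065 for all genes. The ciliary median lies between kif19.S and kifap3.L, which did not pass.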

How the data were processed

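Transcript levels were measured in 4 explant samples. The values the authors deposited are signal intensities, 1 for each probe set on each array, unlogged. Per the submitters' processing notes they were computed with MAS5; version and scaling target were not stated. MAS5 computes each array by itself, and dim signals are noisy. With 2 arrays per group, precision is limited by the number of arrays.

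From these values, 96 control probe sets were left out, log2 was taken of 32539 signals, and the lowest 25% by mean log2 signal (below about 10.6) were removed. Gene symbols came from the platform annotation (15495 probe sets with 1 symbol, 279 with several, 16765 unnamed here), and the brightest probe set stood for each of 9380 genes. The test was limma (version 3.58.1, R version 4.3.3) with lmFit and eBayes, an intensity trend, and two-sided p-values. The replicate number was a block, which leaves 1 residual degree of freedom beside a prior of 26.2 from all genes. The labels give the number but not its meaning; deviations of same-numbered arrays from their group means correlated at 0.795 over genes. The fit without the block, in which 0 genes passed, is given beside the calls of kinesin genes. Fits were run on simulated data with noise of equal size for every gene, which cannot test the intensity trend that the calls depend on. The members, role lists and named genes were chosen with earlier results of these data known: every kinesin gene that passed, the ciliary and mitotic ones that did not, the extremes of the rest, and, of partner lists, the 3 with the smallest p that passed in each direction. kif5b.S, the light chains, and the members shown to describe a list without a call were named beyond that rule after their values were seen.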

Additional observations from a re-analysis of the deposited data

How the results depend on the processing

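With no replicate block, 0 genes rose and 0 fell, and so 0 kinesin genes rose; with the block but eBayes without a trend 38 genes rose and 0 fell, and 0 kinesin genes rose; with arrays centred on their median 187 genes fell. Leaving out 1 array needs a fit with no block in which the lone array of a group is assumed to vary like the other group. Then 0 to 73 genes rose and 0 to 0 fell, with 0 to 0 kinesin genes. The median of the ciliary genes ran from 0.423 to 0.751 in those fits, of the mitotic ones from -0.0857 to 0.135, of the light chains from 0.123 to 0.459, and of transport genes from -0.554 to -0.0607. The ciliary median was 0.352 with 16 added to each signal, in which kif19.S was 0.22. The mitotic median was -0.0645 after quantile normalization, that of light chains 0.135 with the mean over probe sets, and that of transport genes -0.238 with no filter. Leaving out 1 array, kif3b.S ran from 0.713 to 1.06, kif2a.S from 0.74 to 1.35 and kif2a.L from 0.0397 (without ICD replicate 2) to 0.966 (without ICD replicate 1); none of them passed in those fits. In the 7 other alternatives with the block, kif3b.S stayed between 0.836 and 0.914, kif2a.S between 0.995 and 1.07, and kif2a.L between 0.457 and 0.532; kif3b.S and kif2a.S passed in all but the fit without a trend, and kif2a.L in all but that and quantile normalization.

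Sign changed only in genes that passed in no fit. With the block, kif11.S was -0.0376 and kif20a.L -0.0354 after quantile normalization, kif23.S was 0.0455 with the mean over probe sets, and kif4a.S was 0.0278 with arrays centred. With 1 array left out, the sign turned within the ranges -0.12 to 0.135 for kif11.S, -0.976 to 1.53 for kif15.L, -0.349 to 0.201 for kif15.S, -0.117 to 0.17 for kif20a.L, -0.0154 to 0.126 for kif20a.S, -0.514 to 0.419 for kif20b.S, -0.119 to 0.23 for kif22.S, -0.236 to 0.171 for kif23.S, -0.45 to 0.127 for kif2c.S, -0.0588 to 0.56 for kif3a.L, -0.0825 to 0.0802 for kif4a.S, -0.198 to 0.0486 for kif5b.S and -0.259 to 0.749 for klc1.S. The cause was not tested. Signals near the tag controls, as of kif19.S, limit what these arrays can show.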
